A study of Homo sapiens with 12 samples.

Results

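Gene expression in cells given 5 µM acriflavine for 24 h was compared with that in control cells of the same 24 h. The comparison holds 8 of the 12 mRNA libraries of the series, 4 of each group, chosen by their labels. The other 4 libraries (2.5 µM acriflavine) entered only the estimate of the spread. By label the cells are HepG2, which is a hepatoblastoma line, and their descriptions name them HepG2S1, a subline made tolerant of the kinase inhibitor sorafenib by long exposure to rising doses. Control and treated cells alike are therefore sorafenib-resistant cells of 1 line, with no parental line and no normal liver cell beside them. The controls carry the label of no treatment, although the protocol describes fresh medium with the vehicle DMSO. The design text calls the 4 cultures of a group biological replicates. What separated those cultures is not described further, so p-values measure the spread between these libraries.

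Acriflavine is a mixture of acridine dyes. It slips between the bases of DNA, acts on topoisomerases and stops the subunits of hypoxia-inducible factor 1 from pairing. Dyes of this kind also gather in mitochondria and at nucleoli, and DNA intercalators as a class disturb the movement of RNA polymerases. The genes described here are those of transcription, RNA processing, tRNA and amino acid supply, protein handling, signalling, matrix and cytoskeleton.

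Libraries held 11891849 to 14024568 counts in the controls and 10733567 to 15116842 at 5 µM. Levels are given as CPM, counts scaled to the same library total, after TMM scaling, which sets the effective library size so that most genes do not differ. Of 15 markers of hepatocytes, 14 were under 1 CPM in the controls and 5 were at 0. Their sum was 11 CPM in the controls and 24.5 CPM at 5 µM, and all 5 that entered the test rose, 3 of them past 2-fold. Of these 5, 4 were under 1 control CPM and may have entered the test through their treated level. The 1 above that level had a log2 fold change of 0.33. HNF4A, a transcription factor of liver and gut epithelia, was at 0.594 ± 0.200 CPM (SD, n = 4). Its log2 fold change at 5 µM against control was 1.04, at a level close to the floor. CDH2, which encodes N-cadherin, was at 257 ± 7.30 CPM in the controls and 248 ± 3.95 CPM at 5 µM (log2 fold change -0.06 ± 0.04, edgeR adjusted p = 0.221). The defining products of hepatocytes are thus near or at 0, and the cells are called here by their label only. Markers of blood cells summed to 1.36 CPM in the controls and 6.83 CPM at 5 µM, and those of endothelium to 8.01 and 12.8 CPM. Markers of bile duct cells summed to 3730 and 1810 CPM, and those of fibroblasts to 701 and 626 CPM. Most of the bile duct sum was the keratin KRT7, at 3612 and 1580 CPM after TMM scaling. Of the 5 bile duct markers with at least 1 control CPM, 2 rose and 2 fell. The part of these levels in the results was not tested. In bulk RNA, fewer cells of a type and less RNA per cell cannot be told apart.

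Most genes differed at 5 µM. Of 16839 genes tested, 13165 (78.2%) had an adjusted p under 0.05 in edgeR's quasi-likelihood test. At 5 µM 6524 genes (38.7%) were higher and 6641 (39.4%) lower. The 4 treated and 4 control values did not overlap for 70.8% of genes. Because nearly 4 in 5 genes passed, a second test asked which changes were larger than 2-fold, and it called 2043 genes higher (12.1%) and 1131 lower (6.72%). The median log2 fold change over all genes tested was -0.01. With no scaling beyond library size it was 0.12, and 7641 genes were then higher and 5464 lower, so shares are read against the all-gene values of the same scaling. With that scaling rises outnumbered falls, against the order given further on, in the lists of the TCA cycle, tRNA modification, RNA decay, the clock, CDK inhibitors and cyclins, the mitochondrial ribosome and the mitochondrial DNA machinery. Falls still outnumbered rises, by less, among nuclear transport receptors (16 against 12), polymerase I and III genes (15 against 13) and selenoprotein and glutathione genes (12 against 11). Of the 2043 increases past 2-fold, 1127 were in genes under 1 CPM in the controls. Many such genes entered the test through their treated level, so counts for gene groups are also given over members with at least 1 control CPM, and of 15016 genes at that level 34.0% rose and 43.9% fell, with a median of -0.10.

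**Figure D1:**
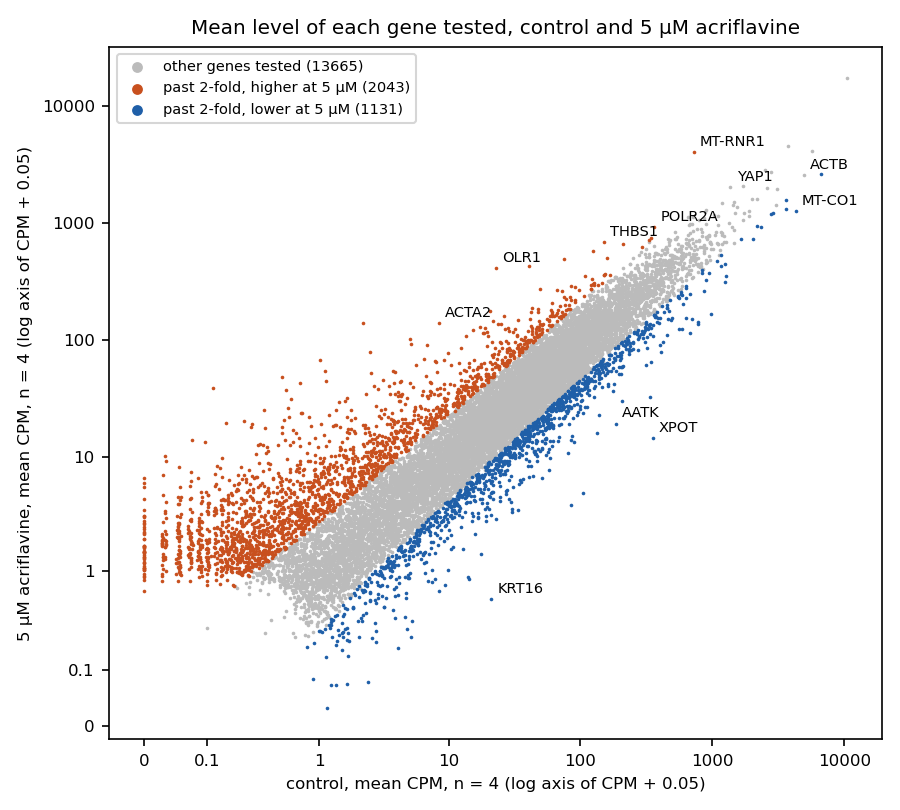
Mean CPM of each of the 16839 genes tested in the controls (x axis) and at 5 µM acriflavine (y axis), n = 4 each, on log axes of CPM + 0.05. Orange points (2043) are past 2-fold higher and blue points (1131) past 2-fold lower. The orange points widen to the left, at genes close to 0 in the controls, and XPOT, AATK and MT-CO1 are among the blue points on the right.

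Among protein-coding genes with at least 5 control CPM the largest increase was 20.1-fold. It was that of the histone gene H2AC11 (5.04 to 102 CPM), whose counts are uncertain. In that set the 12 largest increases also included OLR1, a receptor for oxidised LDL, the growth factor PDGFB, the receptor FGFR3, the endocytic adaptor DAB2 and the retinoic acid carrier CRABP2. OLR1 (ENSG00000173391) stood at 16.6, 24.5, 17.7 and 32.4 CPM in the controls and at 394, 419, 411 and 422 CPM at 5 µM. The groups are far apart, with the controls more spread in proportion than the treated cultures (log2 fold change 4.17 ± 0.16 SE, adjusted p = 6.99e-10). DAB2 was at 34.5, 40.9, 38.8 and 47.7 CPM in the controls and 399.6, 396, 476 and 451 CPM at 5 µM (3.41 ± 0.09). FGFR3 went from 5.62 ± 1.07 to 60.6 ± 5.16 CPM (3.43 ± 0.11) and PDGFB from 5.12 ± 0.687 to 42.6 ± 2.66 CPM (3.04 ± 0.10). The lowest treated value exceeded the highest control value in each of these 4 genes, as the rule that named them required. CRABP2 (3.05 ± 0.09), the chloride and proton exchanger CLCN4 (3.00 ± 0.09), the Hedgehog acyltransferase HHAT (3.00 ± 0.09) and PBLD (4.15 ± 0.09) rose as well. The rest were ACTA2, ID2 and the histone genes H2AC11 and H2AC6, whose family members are near copies of each other, so their counts are uncertain. Poly-A libraries were read, so counts of these histone genes need not follow their total RNA.

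The 12 largest decreases among protein-coding genes with at least 20 control CPM held genes of several kinds. AATK (ENSG00000181409), a neuronal and apoptosis-associated kinase, stood at 192, 182, 183 and 183 CPM in the controls and at 19.4, 23.9, 16.2 and 17.2 CPM at 5 µM. It fell 9.73-fold (log2 fold change -3.28 ± 0.08, adjusted p = 5.72e-25). Its exons share bases with BAIAP2 on the other strand, which rose (1.05), and reads of overlapping genes cannot be told apart without strand. CLTCL1, a second clathrin heavy chain, went from 128, 127, 145 and 131 CPM to 15.7, 15.5, 17.9 and 15.0 CPM, and MUC3A, a membrane mucin, from 205 ± 12.2 to 29.9 ± 2.69 CPM. These 3 genes thus lost most of their level in all treated cultures. Both nucleolar and RNA-modifying enzymes were in the set, with GNL2, a GTPase of large-subunit assembly, at 50.9 ± 2.49 and 6.51 ± 1.35 CPM and PUS7, a pseudouridine synthase, at 58.1 ± 4.66 and 7.65 ± 0.191 CPM. RAB27B, a GTPase of vesicle secretion, fell by 2.93 ± 0.14 on the log2 scale, the HSP90 cochaperone CHORDC1 by 3.29 ± 0.12, the transcription factor TFCP2L1 by 2.99 ± 0.14 and the kinesin KIF21B by 3.07 ± 0.11. KRT16, XPOT and MT-ND6 complete the set.

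**Figure D2:**
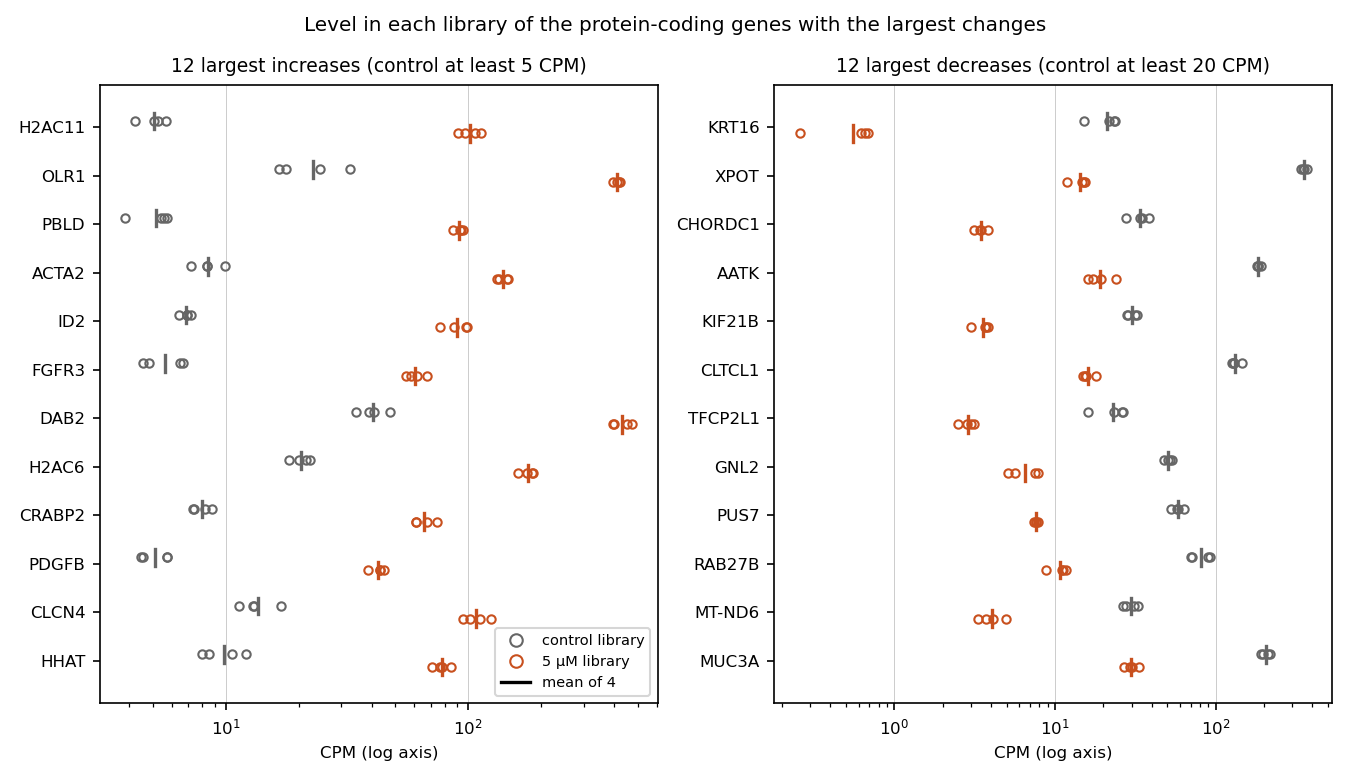
CPM in each library (open circles, log axis) and the mean of 4 (vertical bars) for the 12 largest increases and 12 largest decreases by log2 fold change. Grey marks control libraries and orange 5 µM libraries. In all 24 genes the 2 groups lie apart, which the rule for choosing them required, and OLR1 moves from 22.8 to 412 CPM.

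The most abundant RNAs were redistributed. By gain in mean CPM the 6 leading genes were the 2 mitochondrial rRNAs, the actin crosslinker FLNA, the Hippo pathway coactivator YAP1, the polymerase subunit POLR2A and the matrix glycoprotein THBS1. THBS1 stood at 129.8, 149, 139.7 and 184 CPM in the controls and 672, 723, 731 and 641 CPM at 5 µM (log2 fold change 2.2 ± 0.08). FLNA, already among the most abundant mRNAs, went from 3754 ± 255 to 4547 ± 203 CPM (0.28 ± 0.05), and YAP1 from 1370.3 ± 27.5 to 2041 ± 95.7 CPM (0.57 ± 0.04). The groups did not overlap in any of these 3 genes, as the rule that named them required, and the change of FLNA was small. By loss in CPM the 6 leading genes were MT-ND4, MT-CO1, MT-CO2, beta actin ACTB, the keratin KRT7 and the amino acid transporter SLC7A5. ACTB stood at 4582, 4582, 5272 and 5252 CPM in the controls and 2638, 2515, 2752 and 2393 CPM at 5 µM (-0.93 ± 0.05). KRT7 went from 3612 ± 228 to 1579.8 ± 135 CPM (-1.19 ± 0.06). A gene often used as a loading reference thus fell 1.91-fold with this scaling.

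The make-up of the libraries moved with these genes. The 100 most abundant genes took 15.4% ± 0.291 of control counts and 13.7% ± 0.276 of counts at 5 µM (SD, n = 4), and the 1000 most abundant took 46.5% ± 0.577 and 43.5% ± 0.219. The share of the 10 most abundant genes was 4.70% ± 0.164 and 4.73% ± 0.251 (exact permutation p = 0.771, 2-sided). When each library was thinned to 10733567 counts, 16540 ± 51.1 genes had at least 5 counts in the controls and 18170 ± 39.1 at 5 µM. Counts were thus spread over more genes in the treated cultures. The mitochondrial genome as a whole took 3.51% ± 0.187 and 3.31% ± 0.259 of counts (exact permutation p = 0.286). Within it the rRNAs went from 1.07% ± 0.148 to 2.25% ± 0.224 of counts and the mRNAs from 2.44% ± 0.0567 to 1.06% ± 0.0653. In poly-A libraries mitochondrial rRNA is captured through its short tails, so these shares need not follow the total rRNA. Groups did not overlap in 13 of the 15 make-up measures compared, for which the exact permutation p was 0.0286 (2-sided), the smallest that 4 against 4 can give, and 0.033 after Benjamini-Hochberg adjustment.

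Antisense genes, which are transcribed from the strand opposite another gene, gained in share and in number. Their share of counts was 0.259% ± 0.00602 in the controls and 0.5% ± 0.00609 at 5 µM, and 585.5 ± 19.1 against 999.2 ± 11.6 of them had at least 5 counts after thinning. Among 374 antisense genes with at least 1 control CPM, 198 rose and 85 fell, with a median log2 fold change of 0.43. For other lncRNAs at this level the counts were 171 higher and 147 lower of 422 (median 0.07), for protein-coding genes 4185 and 5017 of 11385 (-0.07) and for pseudogenes 460 and 1226 of 2565 (-0.28). The library kit marks strand, whereas how the counting used it is not stated. Reads of an antisense gene and of its partner may therefore be mixed, and pseudogene counts may come from their parent genes.

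**Figure D3:**
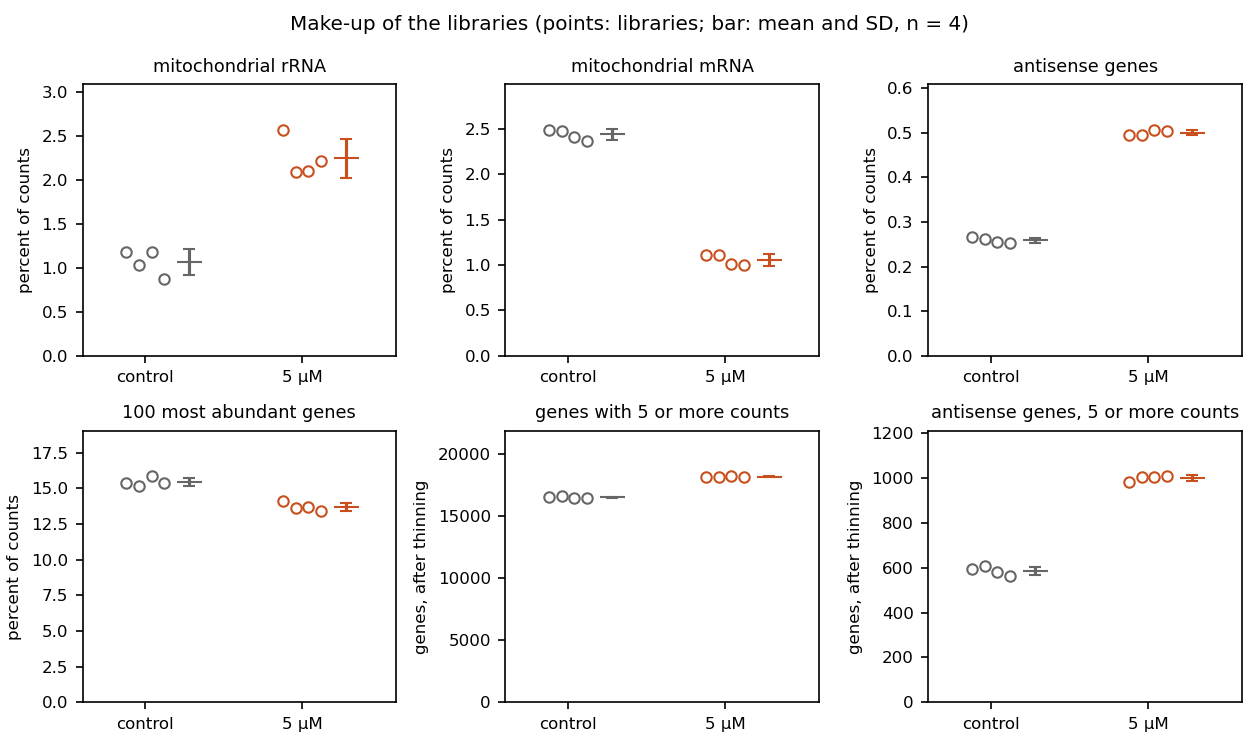
Measures of library make-up for the 4 control (grey) and 4 treated (orange) libraries, with mean and SD beside them. Upper panels and the lower left panel are percent of counts, and the others are numbers of genes with at least 5 counts after thinning to 10733567. Mitochondrial rRNA and antisense genes are higher at 5 µM, while mitochondrial mRNA and the share of the 100 most abundant genes are lower.

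Genes of the RNA polymerase II machinery rose more often than they fell. RNA polymerase II copies protein-coding genes and is helped by general transcription factors, by Mediator and by the kinase P-TEFb, which releases paused polymerase and is held inactive by HEXIM proteins on 7SK RNA. Of 12 tested subunits of polymerase II, 9 rose and 3 fell (median 0.26). POLR2A (ENSG00000181222), the catalytic subunit, stood at 357, 348, 373 and 372 CPM in the controls and at 906, 891, 987 and 892 CPM at 5 µM (log2 fold change 1.34 ± 0.04, adjusted p = 1.93e-23). The subunit POLR2I went the other way, from 35.8 ± 2.16 to 14.9 ± 0.517 CPM (-1.26 ± 0.09). Of 29 general factors tested, 15 rose and 10 fell, with GTF2F1 of TFIIF at 1.08 ± 0.05 and GTF2H3 of TFIIH at -1.01 ± 0.06. Of 13 genes of P-TEFb, 7SK and BET proteins, 8 rose and 1 fell. HEXIM2 was at 14.1, 13.8, 14.3 and 13.7 CPM in the controls and 38.8, 39.2, 39.6 and 41.3 CPM at 5 µM (1.51 ± 0.08), which are groups far apart with little spread in either.

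Elongation factors proper went both ways, with 8 higher and 10 lower of 25. SUPT4H1 of the factor DSIF rose from 69.7 ± 4.66 to 194 ± 15.8 CPM (log2 fold change 1.48 ± 0.06), whereas NELFB, a subunit of the pausing factor NELF, fell from 118 ± 5.77 to 46.5 ± 2.58 CPM (-1.34 ± 0.06). Of 32 Mediator genes, 19 rose and 10 fell (median 0.25), among them MED11 (1.38 ± 0.07) and MED13L (1.11 ± 0.06) on one side and MED22 (-1.65 ± 0.07) on the other. These shares of 59.4% higher and 31.2% lower compare with 40.2% and 41.3% of all 12185 protein-coding genes. Polymerases I and III, which make rRNA and tRNA, had 11 genes higher and 19 lower of 36 (median -0.19). TAF1C of the polymerase I selectivity factor rose (0.98 ± 0.06) and TAF1D of the same factor fell (-1.42 ± 0.07), and GTF3C1 of TFIIIC rose (0.88 ± 0.05) while GTF3A (TFIIIA) fell (-0.98 ± 0.06).

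Histone demethylases rose more often than they fell, 10 against 2 of 13. Acetyltransferases split, with 5 higher and 5 lower of 10, and of 15 deacetylases 8 rose and 5 fell. KDM5B, which removes methyl groups from lysine 4 of histone H3, stood at 91.2 ± 3.70 CPM in the controls and 213 ± 8.17 CPM at 5 µM (log2 fold change 1.23 ± 0.05). The acetyltransferase KAT2B rose from 15.2 ± 1.86 to 47.3 ± 1.5 CPM (1.63 ± 0.08), and its close relative KAT2A fell from 95.9 ± 4.22 to 63.6 ± 6.12 CPM (-0.60 ± 0.06). The pair thus moved in opposite directions, and the naming rule took members from each direction. Polycomb and DNA methylation genes showed no such tilt, with 17 higher and 14 lower of 38 (median 0.00), among them KDM2B of a Polycomb complex (1.28 ± 0.07) and the histone chaperone RBBP4 (-0.92 ± 0.05). The zinc finger genes of the ZNF series on chromosome 19, most of which encode KRAB repressors in clusters, had 31 members higher and 61 lower of 146 with at least 1 control CPM, and ZNF genes elsewhere 67 and 63 of 180.

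Splicing factors of the SR family fell. SR proteins bind exons, recruit the spliceosome and are phosphorylated by CLK, SRPK and DYRK kinases. Of 14 SR proteins tested, 12 fell, 1 rose and 1 did not pass (median log2 fold change -0.54), and 4 fell past 2-fold. SRSF7 stood at 122, 127, 123 and 142 CPM in the controls and at 44.3, 50.8, 42.2 and 40.2 CPM at 5 µM (-1.54 ± 0.06, adjusted p = 2.46e-21). SRSF3 went from 237 ± 18.3 to 88.5 ± 8.02 CPM (-1.43 ± 0.06), and SRRM2, a large scaffold of nuclear speckles, from 864 ± 26.7 to 618 ± 64.9 CPM (-0.49 ± 0.05). In each of these 3 genes the treated cultures all lay below the controls, and 70.8% of all genes tested had no overlap between groups. Of 8 kinases, 5 rose and 2 fell, with DYRK1B at 9.37 ± 0.595 and 29.8 ± 1.95 CPM (1.67 ± 0.09) and DYRK1A at 52.4 ± 2.79 and 109 ± 3.91 CPM (1.06 ± 0.05). Of 20 hnRNPs, which package nascent transcripts, 14 fell and 3 rose. HNRNPA3 fell from 94.4 ± 5.30 to 22.7 ± 2.69 CPM (-2.07 ± 0.07), whereas HNRNPM rose from 242 ± 22.6 to 359 ± 17.4 CPM (0.57 ± 0.05). HNRNPA2B1, the most abundant of them here by CPM, fell from 1140.5 to 595 CPM (-0.94 ± 0.05).

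Among long noncoding RNAs, NEAT1, the scaffold RNA of paraspeckles, and MALAT1 fell while TUG1 rose. NEAT1 stood at 397, 353, 289 and 301 CPM in the controls and at 38.2, 39.9, 26.8 and 23.8 CPM at 5 µM (log2 fold change -3.40 ± 0.17, adjusted p = 1.01e-08). MALAT1, an RNA of nuclear speckles, went from 46.2, 48.5, 33.1 and 34.4 CPM to 7.57, 8.24, 5.93 and 4.81 CPM (-2.65 ± 0.17). Both sets of values are widely separated, and both RNAs were picked out after their values were seen. Poly-A libraries were read, so these counts need not follow the total of either RNA. Of the 9 paraspeckle genes, 6 fell and 0 rose. A list of genes that host snoRNAs in their introns was also counted, and it holds TUG1 and the noncoding RNA NORAD besides. Of its 22 tested genes, 17 fell and 2 rose (median -0.57), TUG1 being 1 of the 2. GAS5 went from 171 ± 4.91 to 74.1 ± 2.35 CPM (-1.21 ± 0.05) and SNHG7 from 38.5 ± 3.79 to 10.8 ± 0.551 CPM (-1.83 ± 0.08), while TUG1 rose from 133 ± 12.5 to 200.1 ± 9.23 CPM (0.59 ± 0.06). RNA decay genes were more even, with 15 higher and 20 lower of 45, among them SMG8 of nonsense-mediated decay (1.44 ± 0.06) and the exosome subunit EXOSC8 (-1.56 ± 0.09).

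Genes that charge tRNA and supply amino acids fell broadly. Aminoacyl-tRNA synthetases load each amino acid onto its tRNA, and the transcription factor ATF4 is known to raise many of them, with amino acid transporters and serine and asparagine synthesis, when eIF2 is phosphorylated. Of 20 cytosolic synthetases, 16 fell and 2 rose (median log2 fold change -0.84), while of 17 mitochondrial ones 8 fell and 6 rose (-0.04). EPRS1, which charges glutamate and proline, stood at 710.0, 739, 692 and 671 CPM in the controls and at 148, 151, 155 and 152 CPM at 5 µM (-2.21 ± 0.05, adjusted p = 7.92e-29). IARS1 for isoleucine went from 821 ± 26.3 to 432 ± 20.2 CPM (-0.93 ± 0.04). Of 24 amino acid transporters, 19 fell and 4 rose (median -1.04). SLC7A5, the light chain of the large neutral amino acid exchanger, stood at 2788, 2737, 3023 and 2986 CPM in the controls and 1225, 1190.1, 1267 and 1179 CPM at 5 µM (-1.25 ± 0.05). The arginine transporter SLC7A2 fell from 203 ± 15.9 to 58.9 ± 4.52 CPM (-1.79 ± 0.06), and the lysosomal sensor SLC38A9 rose (0.78 ± 0.10). All 5 enzymes of serine synthesis and conversion fell, with PSAT1 at 444, 455, 474 and 475 CPM and then 152, 149, 148 and 153 CPM (-1.62 ± 0.04).

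The integrated stress response itself was described through its kinases, phosphatase and target factors. Of 8 target factors, 7 fell and 0 rose (median log2 fold change -1.75). DDIT4, an inhibitor of mTORC1, went from 969 ± 78.0 to 168 ± 12.6 CPM (-2.53 ± 0.06) and the pseudokinase TRIB3 from 399.8 ± 28.5 to 90.2 ± 2.18 CPM (-2.15 ± 0.06). PPP1R15A, the inducible subunit that directs dephosphorylation of eIF2, rose from 60.6 ± 3.81 to 99.5 ± 3.23 CPM (0.72 ± 0.06), and the amino acid sensing kinase EIF2AK4 rose too (0.33 ± 0.05). Of the 4 eIF2 kinases 2 rose and 2 fell, and of the 2 phosphatase subunits 1 rose and 1 fell.

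Promoters of 3 genes of this response that fell past 2-fold are shown because each holds the composite word TGATGNAA, which ATF4 and C/EBP proteins can bind, and that of XPOT because it fell most among them and holds none. They are the 250 bases before the annotated start from RefSeq (GRCh38.p14), 5′ to 3′ on the strand of the gene, at chr16:70289507-70289756 on the minus strand for AARS1, chr15:40953221-40953470 on the plus strand for CHAC1, chr7:97872409-97872658 on the minus strand for ASNS and chr12:64404142-64404391 on the plus strand for XPOT. Capitals mark the word on either strand, and these 4 genes were picked out after their values were seen.
AARS1: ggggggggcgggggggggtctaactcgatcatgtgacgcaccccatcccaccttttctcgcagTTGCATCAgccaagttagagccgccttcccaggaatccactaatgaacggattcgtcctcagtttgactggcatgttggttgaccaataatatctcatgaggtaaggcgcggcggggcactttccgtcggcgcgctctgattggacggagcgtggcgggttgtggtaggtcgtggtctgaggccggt
CHAC1: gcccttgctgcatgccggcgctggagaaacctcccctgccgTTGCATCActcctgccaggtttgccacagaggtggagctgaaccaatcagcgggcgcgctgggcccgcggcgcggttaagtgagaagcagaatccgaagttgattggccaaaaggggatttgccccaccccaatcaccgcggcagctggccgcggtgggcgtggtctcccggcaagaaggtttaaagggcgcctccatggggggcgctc
ASNS: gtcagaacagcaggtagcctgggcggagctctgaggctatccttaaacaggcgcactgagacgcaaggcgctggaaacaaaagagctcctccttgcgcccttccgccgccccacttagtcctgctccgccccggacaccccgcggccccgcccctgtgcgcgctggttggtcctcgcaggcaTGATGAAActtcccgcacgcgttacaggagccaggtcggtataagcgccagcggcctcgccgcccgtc
XPOT: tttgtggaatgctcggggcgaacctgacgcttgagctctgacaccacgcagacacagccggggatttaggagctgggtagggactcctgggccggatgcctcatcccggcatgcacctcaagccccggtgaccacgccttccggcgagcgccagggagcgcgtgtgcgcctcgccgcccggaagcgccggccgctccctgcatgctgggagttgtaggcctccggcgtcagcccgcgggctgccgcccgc
The word begins 187 bases before the start in AARS1, 209 in CHAC1 and 68 in ASNS. AARS1 stood at 757, 746, 853 and 772 CPM in the controls and at 146, 144, 131 and 128 CPM at 5 µM (log2 fold change -2.51 ± 0.05). CHAC1, an enzyme that degrades glutathione, went from 28.7 ± 2.87 to 4.27 ± 0.717 CPM (-2.75 ± 0.12), and asparagine synthetase ASNS from 321 ± 29.5 to 85.6 ± 9.55 CPM (-1.90 ± 0.07). XPOT, the tRNA exportin, stood at 354, 369, 349 and 342 CPM and then at 15.5, 15.1, 14.7 and 11.9 CPM (-4.64 ± 0.06). Across the 9945 tested protein-coding genes with a matched promoter, the word stood in 1.4%, against 1.7% of 693 genes past 2-fold lower and 2.1% of 981 past 2-fold higher. The word was thus about as frequent among the decreases as among all genes.

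Other promoter words were counted the same way, on both strands of the same 250 bases. The ETS word CCGGAAG stood in 16.2% of all promoters, in 13% of those of genes past 2-fold lower and in 7.7% of those past 2-fold higher. In the latter with at least 1 control CPM it stood in 10.6%. The TATA word TATAAA stood in 5.3%, 5.3% and 8.8% (7.9% with at least 1 control CPM), and the AP-1 word TGANTCA in 3.8%, 3.8% and 5.9%. The short CRE word TGACG stood in 30.3%, 29.9% and 24.1% (24.0% with at least 1 control CPM). The GC box GGGCGG stood in 68.1%, 68.3% and 59.6% (64.4% with at least 1 control CPM). The E-box CACGTG stood in 9.0%, 9.4% and 7.6% (8.8% at that level) and the CCAAT word in 35.3%, 33.6% and 35.0%. The CRE word TGACGTCA stood in 3.0%, 2.5% and 2.4% (3.1% at that level). Genes past 2-fold higher thus held fewer ETS and short CRE words than all genes. Part of the ETS and TATA gaps and most of the GC box gap was in genes under 1 control CPM. A match is a description of letters and not a bound site.

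Most translation initiation factors fell too. Of 46 translation initiation factors, 30 fell and 9 rose (median log2 fold change -0.37), with EIF2S3 of eIF2 at 360.1 ± 8.27 and 164 ± 7.29 CPM (-1.13 ± 0.05) and the poly-A binding protein PABPC1 at 502 ± 15.3 and 251 ± 2.94 CPM (-1.0 ± 0.04). The eIF2B subunit EIF2B2 rose from 47.8 ± 4.17 to 129 ± 9.16 CPM (1.43 ± 0.06) and the translation repressor EIF4EBP2 from 124 ± 4.77 to 262 ± 13.5 CPM (1.08 ± 0.05). Of 54 genes that modify or process tRNA, 25 fell and 18 rose (median -0.09), among them the dihydrouridine synthase DUS1L (-1.61 ± 0.06) and the RNase P subunit POP5 (0.70 ± 0.05). These shares, 46.3% and 33.3%, are near those of all protein-coding genes.

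**Figure D4:**
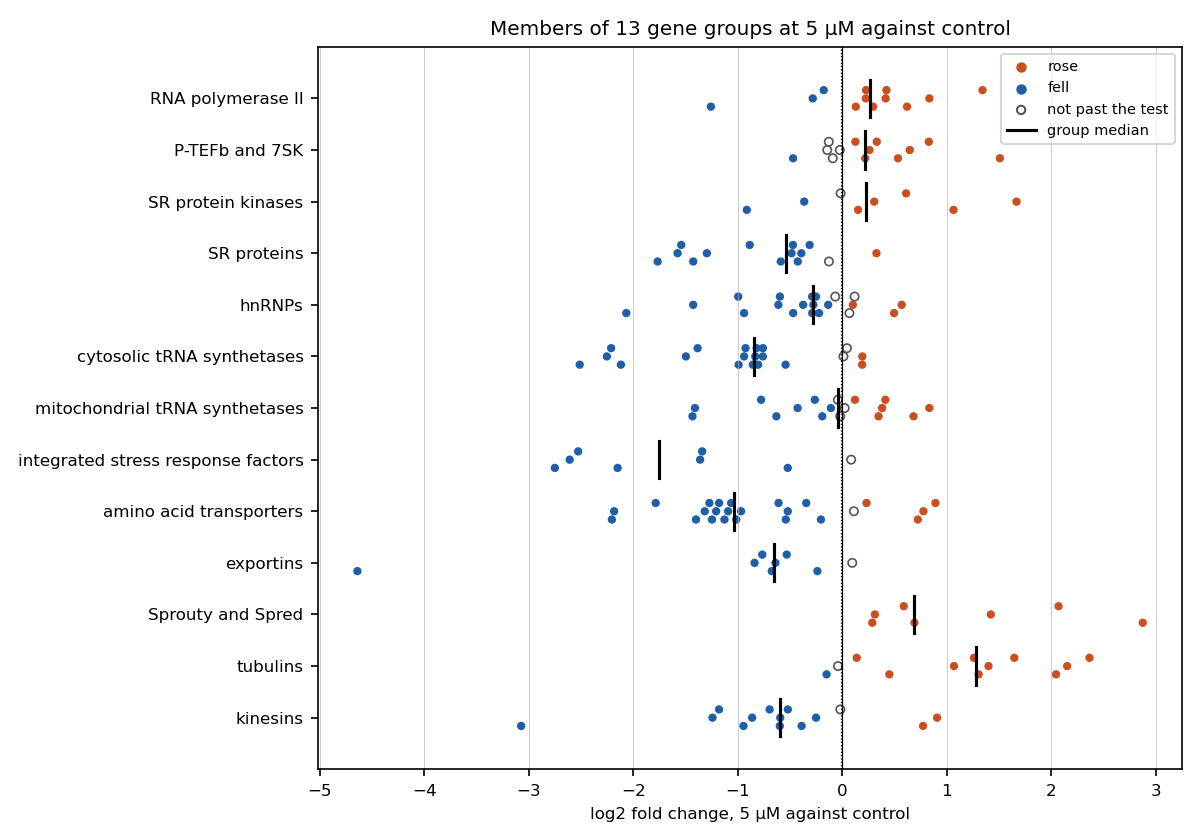
Log2 fold change at 5 µM against control of each tested member of 13 gene groups (x axis), with filled points past the test, open points not, a bar at the group median and a dotted line at the all-gene median of -0.01. Sprouty, Spred and tubulin genes lie mostly to the right, with 1 tubulin lower (members under 1 control CPM included), and SR proteins, cytosolic tRNA synthetases, stress response factors, exportins and kinesins mostly to the left, where XPOT is the farthest at -4.64.

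Enzymes of nucleotide and one-carbon metabolism fell as well. De novo purine synthesis builds the ring on a ribose phosphate with formate carried by folate. Of 14 purine genes, 13 fell and 1 rose. PFAS stood at 179, 192, 198 and 218 CPM in the controls and at 53.2, 57.5, 50.0 and 45.4 CPM at 5 µM (log2 fold change -1.94 ± 0.06), and ATIC, the last enzyme of the pathway, went from 219 ± 11.2 to 88.8 ± 4.37 CPM (-1.30 ± 0.05). The exception was PRPS2, which makes the ribose phosphate donor and rose from 159 ± 5.21 to 285 ± 18.1 CPM (0.84 ± 0.05). Of 12 pyrimidine genes, 7 fell and 3 rose. In the whole list of serine, glycine and one-carbon enzymes 18 of 24 fell and 4 rose (median -0.70), with the mitochondrial MTHFD2 lower (-1.28 ± 0.04). Polyamine genes had 7 lower and 1 higher of 10 (median -0.63), with spermidine synthase SRM lower (-1.65 ± 0.06) and SAT1, which starts polyamine breakdown, higher (1.04 ± 0.07). The spermine oxidase SMOX, another enzyme of breakdown, fell (-1.54 ± 0.08), so the 2 breakdown enzymes tested split.

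Other metabolic lists differed among themselves. Of 28 genes of the TCA cycle and its links, 13 fell and 9 rose (median log2 fold change -0.05), with the malic enzyme ME2 lower (-1.29 ± 0.05) and the citrate lyase ACLY higher (0.67 ± 0.04). Of 13 urea cycle and nitrogen genes, 8 fell and 4 rose, with ASL lower (-1.69 ± 0.08) and ornithine aminotransferase OAT higher (1.43 ± 0.07). Of 14 iron genes with at least 1 control CPM, 10 fell and 1 rose (median -0.50). Transferrin receptor TFRC went from 577 ± 26.3 to 249.8 ± 15.4 CPM (-1.21 ± 0.05) and ferritin heavy chain FTH1 from 3089 to 1968 CPM (-0.65 ± 0.06), while the iron-sulfur scaffold ISCU rose (0.68 ± 0.05). Of 29 selenoprotein and glutathione genes, 16 fell and 8 rose (median -0.13). The glutathione part held most of the decreases, 9 of 11, with glutathione synthetase GSS lower (-1.29 ± 0.05) and GSTP1 higher (0.56 ± 0.05). Of 23 ABC transporters, 9 rose and 7 fell, with the drug exporter ABCC1 higher (0.54 ± 0.05) and ABCA2 lower (-1.22 ± 0.06).

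Chaperonin and secretory pathway genes fell more often than they rose. Of the 8 subunits of the chaperonin CCT, which folds actin and tubulin, 7 fell and 0 rose, with CCT6A at 450.5 ± 21.8 and 216 ± 11.6 CPM (log2 fold change -1.06 ± 0.05). Of the 8 mitochondrial chaperonin and chaperone genes 7 fell, among them HSPA9 (-1.19 ± 0.04), and prefoldins had 3 higher and 1 lower of 6, with PFDN1 higher (1.21 ± 0.05). Of 40 proteasome genes, 23 fell and 9 rose (median -0.20), but with library size alone 14 fell and 13 rose. PSMD14 of the regulatory particle fell (-1.06 ± 0.06), PSMB4 of the core rose (0.50 ± 0.04), and PSMB10 of the immunoproteasome went from 2.81 ± 0.620 to 14.7 ± 2.14 CPM (2.38 ± 0.14). Ubiquitin and SUMO genes split evenly, 14 higher and 14 lower of 34. These shares, 41.2% each, are near the 40.2% and 41.3% of all protein-coding genes. The polyubiquitin gene UBB was higher (0.69 ± 0.05) and UBA1, the main activating enzyme, lower (-0.89 ± 0.05). Of 47 genes of vesicle coats, translocon and N-glycosylation, 30 fell and 10 rose (median -0.34). SSR1 of the translocon went from 419.6 ± 21.3 to 96.3 ± 3.70 CPM (-2.12 ± 0.05) and DDOST of the oligosaccharyltransferase from 331 ± 17.5 to 547 ± 9.19 CPM (0.73 ± 0.04).

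Of 35 nuclear transport receptors, 8 rose and 19 fell (22.9% and 54.3%, median log2 fold change -0.24). In the fifth of protein-coding genes with the highest control level, 26.5% rose and 58.6% fell (median -0.24). Exportins and importins carry cargo through the nuclear pore, and the GTPase RAN gives the direction. Of 8 exportins, 7 fell and 0 rose (median log2 fold change -0.66). RAN went from 453 ± 15.5 to 260.0 ± 4.78 CPM (-0.80 ± 0.04) and importin beta KPNB1 from 716 ± 23.4 to 438 ± 6.19 CPM (-0.71 ± 0.04). Importin alpha genes went the other way, with 4 of 6 higher and 1 lower, and the mRNA exporter NXF1 rose from 37.5 ± 3.00 to 84.9 ± 7.49 CPM (1.18 ± 0.07). Of 29 nucleoporins, 20 fell and 4 rose (median -0.24), with NUP133 lower (-0.70 ± 0.05) and NUP88 higher (0.53 ± 0.05).

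Genes that maintain and read the mitochondrial genome moved both ways, beside the fall of its mRNAs. Of 31 such nuclear genes, 15 fell and 13 rose (median log2 fold change -0.15). Shares of 48.4% and 41.9% compare with 41.3% and 40.2% of all protein-coding genes. RRM2B, a p53-inducible subunit of ribonucleotide reductase that supplies nucleotides for mitochondrial DNA, stood at 15.6 ± 2.95 CPM in the controls and 68.0 ± 4.87 CPM at 5 µM (2.12 ± 0.10). TOP1MT, the mitochondrial type I topoisomerase, went from 29.5 ± 1.22 to 6.82 ± 0.753 CPM (-2.12 ± 0.11), and the helicase TWNK rose (0.47 ± 0.06). MT-CO1 itself stood at 4488, 4188, 4399 and 3998 CPM in the controls and at 1371, 1341, 1229.6 and 1138 CPM at 5 µM (-1.75 ± 0.06). Of 76 mitochondrial ribosome genes, 32 fell and 30 rose (median -0.03), close to all genes, with MRPL12 lower (-2.35 ± 0.09), DAP3 lower (-1.57 ± 0.05) and MRPS12 higher (0.96 ± 0.05).

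**Figure D5:**
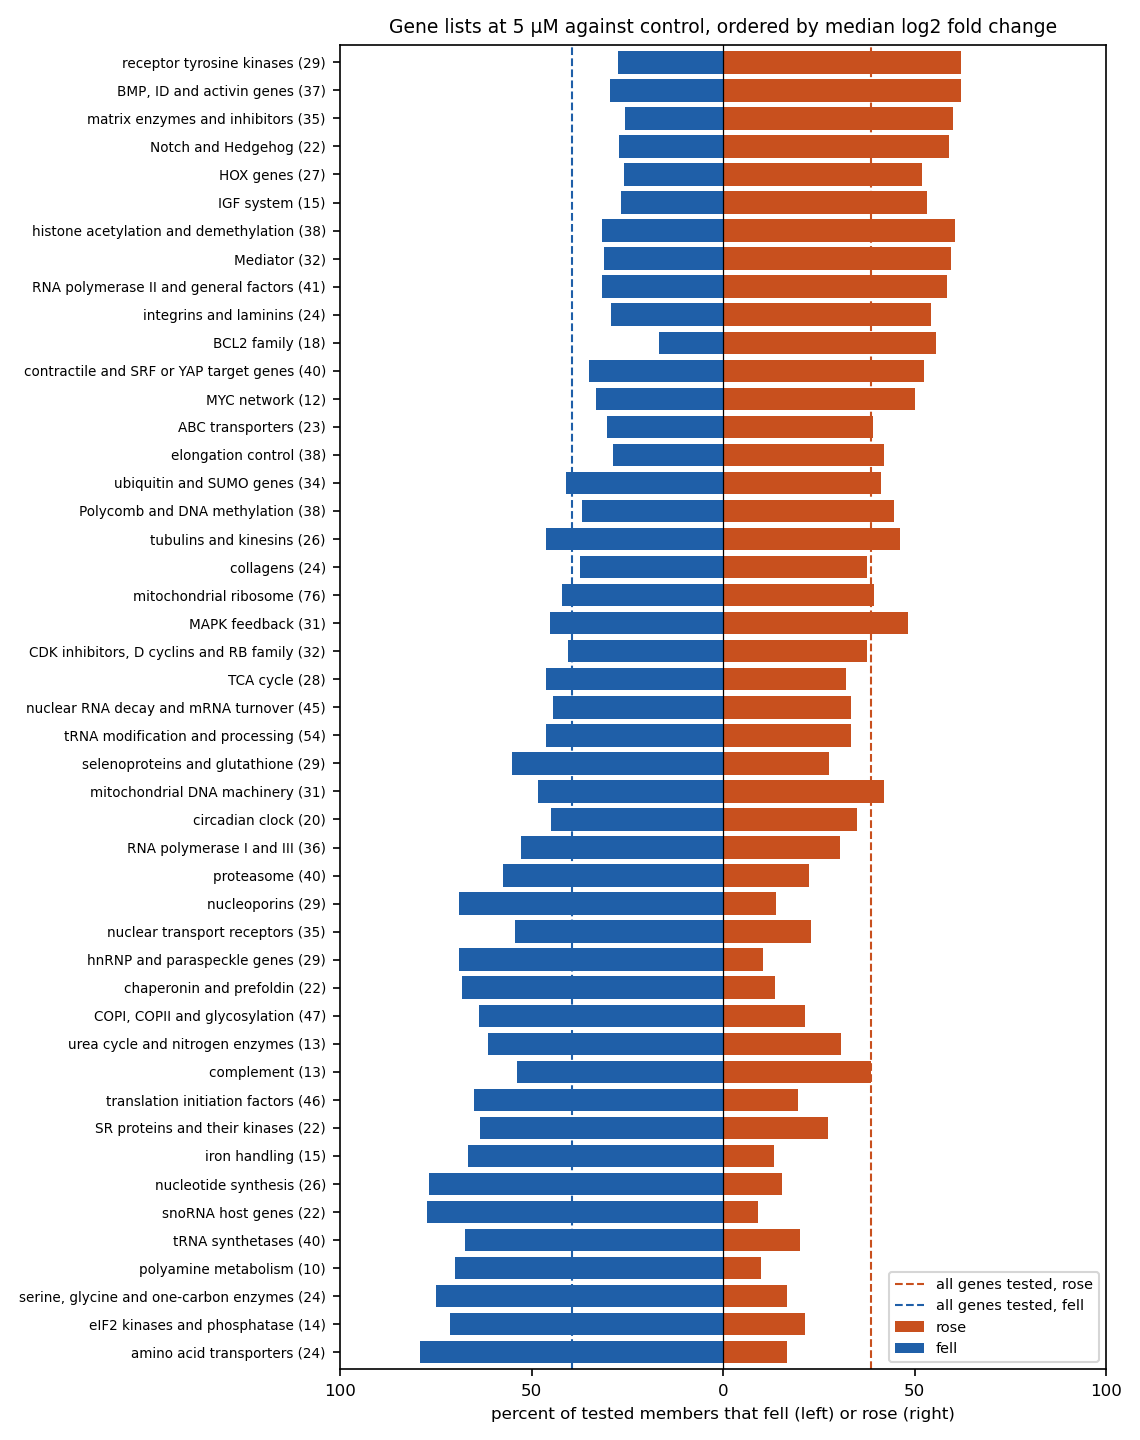
Share of the tested members of 47 gene lists that rose (orange, right) or fell (blue, left) at 5 µM, ordered by median log2 fold change, with the number tested in brackets. Dashed lines give the shares of all genes tested, 38.7% and 39.4%. Amino acid transporters are at the bottom with 79.2% lower, and receptor tyrosine kinases at the top, where members under 1 control CPM add to the share that rose.

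Receptor, Sprouty and Spred genes rose more often than they fell. Receptor tyrosine kinases bind growth factors, and the MAPK pathway below them is limited by DUSP phosphatases and by Sprouty and Spred proteins. Of 43 kinases listed, 29 were tested, and of the 23 with at least 1 control CPM 12 rose and 8 fell (median log2 fold change 0.31). IGF1R went from 43.1 ± 1.45 to 118 ± 5.87 CPM (1.45 ± 0.05), whereas MET fell from 270.2 ± 18.2 to 148 ± 8.74 CPM (-0.87 ± 0.05) and EGFR from 304 ± 21.8 to 196 ± 12.5 CPM (-0.63 ± 0.05). The abundant receptors MET and EGFR were thus lower and the fibroblast growth factor receptor FGFR3 higher. All 7 Sprouty and Spred genes rose, between 0.29 and 2.87 on the log2 scale, among them all 5 with at least 1 control CPM (median 0.59). SPRY1, picked out after its values were seen, stood at 1.48, 2.42, 1.79 and 1.61 CPM in the controls and at 4.54, 4.64, 5.06 and 5.37 CPM at 5 µM (1.42 ± 0.17). Of 10 DUSP genes, 6 fell and 3 rose, with DUSP4 higher (1.84 ± 0.07), DUSP6 higher (2.29 ± 0.14), DUSP1 lower (-1.09 ± 0.05) and DUSP9 lower (-2.33 ± 0.11). In the whole list of MAPK feedback genes 13 rose and 14 fell of 29 with at least 1 control CPM.

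Ligands and targets of the BMP and activin branch of TGF-beta signalling moved in both directions with large changes. Of 33 such genes with at least 1 control CPM, 19 rose and 11 fell (median log2 fold change 0.42). ID proteins, which are classic BMP targets and block basic helix-loop-helix factors, split: ID2 stood at 6.41, 7.18, 6.89 and 6.94 CPM in the controls and 87.9, 76.5, 97.7 and 99.0 CPM at 5 µM (3.72 ± 0.10), while ID1 went from 298 ± 15.3 to 104 ± 5.12 CPM (-1.52 ± 0.05). BMP4 rose from 1.34 ± 0.0779 to 18.7 ± 0.729 CPM (3.8 ± 0.13), and the activin subunit INHBE fell from 14.2 ± 1.59 to 0.851 ± 0.187 CPM (-4.06 ± 0.17). ID1 and ID2 thus differed in direction, and the naming rule took genes from each direction. Neither overlapped between groups, which held for 70.8% of all genes tested. In the Notch and Hedgehog list 10 rose and 6 fell of 19 with at least 1 control CPM, with the ligand DLL4 at 1.30 ± 0.370 and 8.53 ± 1.72 CPM (2.73 ± 0.19) and the receptor NOTCH3 at 34.1 ± 6.80 and 5.78 ± 1.46 CPM (-2.59 ± 0.16). Of 12 insulin-like growth factor genes at that level, 5 rose and 4 fell, with IGFBP6 higher (1.38 ± 0.08) and the noncoding H19 lower (-0.49 ± 0.05).

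Cell cycle and cell death regulators held members that rose and members that fell. Of 8 CDK inhibitors, 4 rose, among them CDKN1A (1.65 ± 0.06), and 3 fell. CDKN1C (p57) stood at 805, 718, 854 and 709 CPM in the controls and at 137, 133, 159.8 and 145 CPM at 5 µM (log2 fold change -2.42 ± 0.06), whereas CDKN2C (p18) stood at 48.1, 50.9, 55.5 and 52.8 CPM and then at 139, 129, 141 and 137 CPM (1.4 ± 0.05). Neither inhibitor overlapped between groups, which held for 70.8% of all genes tested. Their opposite directions follow from the naming rule, which took members with the smallest p in each direction. In the whole list of CDK inhibitors, cyclins and RB family 12 rose and 13 fell of 32, among the latter CCNA2 (-0.86 ± 0.05). These shares, 37.5% and 40.6%, are near the 40.2% and 41.3% of all protein-coding genes. Of 17 BCL2 family genes with at least 1 control CPM, 9 rose and 3 fell (median 0.15). The pro-death gene BMF stood at 2.27, 2.2, 2.6 and 2.28 CPM in the controls and at 37.4, 29.5, 38.2 and 34.1 CPM at 5 µM (3.90 ± 0.12), the survival gene BCL2L1 rose (0.90 ± 0.05) and the pro-death gene HRK fell (-0.93 ± 0.06). Of 11 MYC network genes at that level, 5 rose and 4 fell, with MYC itself lower (-1.36 ± 0.05) and MXD4, a MYC antagonist, higher (0.99 ± 0.06). Their shares, 45.5% and 36.4%, compare with 36.8% and 44.1% of all protein-coding genes at that level. Of 19 clock genes, 6 rose and 9 fell, with the repressor CRY1 higher (1.41 ± 0.06).

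Tubulins and kinesins moved apart. Tubulins form microtubules and kinesins are motors that walk along them. Of 11 tubulin genes with at least 1 control CPM, 9 rose and 1 fell (median log2 fold change 1.26). TUBA4A stood at 146, 145, 166 and 181 CPM in the controls and at 505, 504, 497 and 489.6 CPM at 5 µM (1.64 ± 0.06), and TUBB6 went from 155 ± 15.0 to 370.1 ± 4.49 CPM (1.26 ± 0.05). The most abundant, TUBB, was at 2801 ± 256 and 2721 ± 66.6 CPM (-0.04 ± 0.05, adjusted p = 0.447), and with library size alone it came out at 0.095. Of 14 kinesins, 11 fell and 2 rose (median -0.60), with KIF3C at 22.2 ± 1.84 and 9.39 ± 1.19 CPM (-1.24 ± 0.10). Tubulin genes are similar in sequence, so the split of reads among them is uncertain. Of 39 contractile and YAP target genes with at least 1 control CPM, 20 rose and 14 fell (median 0.13). ACTA2, smooth muscle actin, stood at 8.36, 8.36, 9.93 and 7.19 CPM in the controls and 134, 131, 145 and 146 CPM at 5 µM (4.04 ± 0.07), and the YAP partner TEAD3 rose from 33.2 ± 1.30 to 107 ± 5.77 CPM (1.69 ± 0.06).

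Matrix genes moved in both directions. Of 13 matrix proteases with at least 1 control CPM, 9 rose and 2 fell (median log2 fold change 0.40), among them ADAMTS1 (1.58 ± 0.09), and of 9 crosslinking and modifying enzymes 6 fell and 2 rose (-0.23). Of 7 inhibitors, 4 rose and 1 fell. The protease inhibitor SERPINE2 stood at 68.5, 60.2, 75.0 and 63.5 CPM in the controls and at 252, 265, 265 and 284 CPM at 5 µM (2.00 ± 0.06). Lysyl oxidase LOX, which crosslinks collagen, stood at 311, 311, 303 and 272 CPM and then at 108, 115, 115 and 109 CPM (-1.42 ± 0.05), and the collagen prolyl hydroxylase P4HA3 fell from 30.8 ± 5.65 to 5.42 ± 0.592 CPM (-2.51 ± 0.12). The inhibitor was thus higher and these 2 collagen-modifying enzymes lower in every treated culture. The naming rule took the smallest p in each direction, and 70.8% of all genes tested did not overlap. Of 21 collagens at that level, 6 rose and 9 fell (median -0.14), with COL8A1 (1.69 ± 0.06) and COL4A6 (1.72 ± 0.07) higher and COL5A1 (-0.48 ± 0.04) lower. Of 22 integrins and laminins, 11 rose and 7 fell (median 0.16), with ITGA7 at 4.82 ± 0.720 and 32.1 ± 2.23 CPM (2.73 ± 0.12), LAMA5 lower (-1.0 ± 0.05) and ITGB1, the shared beta chain, lower (-0.81 ± 0.05). Of 11 complement genes, 3 rose and 7 fell, with clusterin CLU higher (1.12 ± 0.04) and C3 lower (-0.50 ± 0.04). HOX genes at that level had 9 higher and 7 lower of 20, with HOXC13 at 33.6 ± 2.88 and 147 ± 8.25 CPM (2.13 ± 0.06), where an antisense gene on the other strand also rose (3.40).

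Fold changes varied with base composition. Protein-coding genes were ordered by the GC content of their longest annotated transcript and divided into 5 bins of equal size. In the lowest bin, 31.32% to 41.1% GC, 26.5% of genes rose and 51.7% fell, whereas in bin 4, 52.25% to 58.8% GC, 47.9% rose and 36% fell. The difference between these bins in median log2 level, each gene taken relative to its control mean, was -0.15 to 0.174 in the 4 control libraries and 0.242 to 0.395 in the 4 treated ones. The groups do not overlap, but GC bias of a library and a response that follows GC cannot be told apart here. After a correction for GC in each library the test called 6633 genes higher and 6692 lower. The median was then -0.57 for all 40 tRNA synthetases and -0.98 for amino acid transporters. Some lists changed more. RNA decay genes had 21 higher and 19 lower (median 0.12), against 15 and 20 (-0.07) without it. Over all tested members, integrins and laminins had 11 higher and 9 lower, against 13 and 7. MYC network genes had 4 and 4, against 6 and 4. The MAPK feedback median was 0.03, against -0.05. Over genes with at least 1 control CPM, the lowest GC bin had 24.1% higher and 53.9% lower, and bin 4 had 44.0% higher and 39.1% lower. At that level genes with 20 or more exons rose in 31.3% and fell in 50.7% of cases, and genes with 1 exon in 40.4% and 38.4%. By gene span the shortest bin rose in 44.0% and fell in 37.4% of all cases. With at least 1 control CPM it rose in 39.7% and fell in 41.0%, and the longest bin in 35.1% and 44.3%. At that level these bins were also compared within groups of low, middle and high GC. The shortest rose in 29.5%, 42.2% and 40.5% there, and the longest in 30.0%, 40.2% and 38.4%. The gap in rises was thus smaller among genes of similar GC. At high GC the falls still differed, at 40.9% and 46.3%. Within groups of control level or of transcript length the shortest rose more often in every group. By CpG content of the promoter, known for 81.6% of genes, the lowest bin rose in 46.9% and fell in 35.0% of all cases, but in 39.7% and 40.8% of those with at least 1 control CPM, where the highest bin had 31.6% and 50.1%. By control level the lowest bin, up to 6.685 CPM, rose in 60.6% and fell in 18.9% of all cases. Of its genes with at least 1 control CPM, 46.5% rose and 27.6% fell. In the highest bin, from 97.8 CPM, 26.5% rose and 58.6% fell. The shares of nuclear transport receptors and of proteasome genes (22.5% and 57.5%) were near those of the highest bin. Whether list shares follow control level was not tested. These are descriptions over genes, which are not independent replicates.

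Of the genes named with values, 22 share exonic bases with another tested gene at 10% or more of their own level, 20 of them with a gene on the other strand, and their counts are uncertain. Besides AATK, BAIAP2 and HOXC13 these are POLR2I, HEXIM2, SUPT4H1, MED11, GTF2H3, GTF3A, TAF1D, KDM2B, RBBP4, EXOSC8, HNRNPA2B1, TUBA4A, TUBB6, ITGA7, CCNA2, NUP88, DAP3, TWNK and MT-ND4.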

How the data were processed

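Poly-A RNA was read in 12 libraries, 4 for each of control, 2.5 µM and 5 µM acriflavine. The deposited table holds whole-number counts per gene, which the authors made from reads aligned to GRCh37, per the submitters' processing notes. Tools named there, with no role, are the aligners STAR 2.4.1d and Bowtie2 2.2.4, the counter featureCounts 1.4.6 and edgeR 3.8.6. How counting treated strand is not given in the sources used here.

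Of 63152 genes, 32171 had no count, 51987 had a symbol and 16839 passed edgeR's expression filter. All 12 libraries were fitted together in edgeR 4.0.16 (TMM scaling, robust quasi-likelihood test, 9 residual degrees of freedom, Benjamini-Hochberg adjustment), and changes past 2-fold were tested with glmTreat. Standard errors are the log2 fold change divided by the square root of F. Depth sets the counting error of a level, and reads without molecular identifiers are not independent molecules. Make-up measures were compared by exact permutation. In simulated data for this comparison with 16839 genes, 50 genes were changed at each of 1.25, 1.5, 2 and 4-fold. The changed genes had at least 1 control CPM, and all other genes were left unchanged. Of these changes 60, 82, 88 and 98% were recovered, and 9.89% of calls were false. In the data 78.2% of genes passed, so these shares need not carry over to the real comparison.

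The members and the 52 gene lists (1607 of 1615 entries matched, 1428 tested) were chosen with earlier results of these data known. Genes are named by rule: the 12 largest increases (at least 5 control CPM) and decreases (at least 20) among protein-coding genes, the 6 largest gains and losses in CPM, and for each list the 2 members with the smallest p in each direction and the most abundant one. Other genes are said to be picked out after their values were seen, or stand as an overlapping partner. Some genes that the rule names are not reported here. Alternatives were other scalings, filters, libraries, a replicate block, GC correction, DESeq2 1.42.0 and limma 3.58.1 (voom).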

Additional observations from a re-analysis of the deposited data

Results flagged for a closer look

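Among 340 groups of 4 values looked at for the named genes, 12 held 1 library whose gap to the nearest other value, relative to the group's range, exceeded Dixon's 95% critical value, and chance gives about 1 in 20 groups. In the controls, PBLD was low in replicate 3 (3.85 CPM, the others 5.42 to 5.70), KPNB1 was low in replicate 3 (681 CPM), MED11 was low in replicate 2 (22.4 CPM, the others at 22.6) and AATK was high in replicate 1 (192 CPM, the others 182 to 183). At 5 µM, replicate 2 was low for KIF21B (3.01 CPM) and KRT16 (0.258 CPM, the others 0.624 to 0.687) and high for IGF1R (127 CPM). Replicate 3 was high for POLR2A (987 CPM) and low for HNRNPA2B1 (548 CPM, the others 609 to 611). SLC38A9 was low in replicate 1 (17.3 CPM), C3 was low in replicate 4 (456 CPM, the others 485 to 489) and CDKN1A was high in replicate 1 (690 CPM). The call and direction of each of these 12 genes held in every fit that left out 1 library.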

How the results depend on the processing

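Of 3909 values of the 170 named genes under 23 alternatives, 3906 kept their call and direction. The exception was TUBB, which did not pass in the reported fit and came out at 0.095 with library size alone, at -0.15 with GC correction and at -0.15 with the replicate block and GC correction. Without the filter on low counts 3229 genes were past 2-fold higher, and against a 1.5-fold threshold 3339 were higher and 2866 lower. Other counts stayed within 1.5 times the reported ones, and leaving out 1 library gave 6385 to 6707 genes higher and 6471 to 6817 lower. With the replicate block 6493 genes were higher and 6598 lower, and 2025 and 1116 past 2-fold. Whether the replicate numbers pair the libraries is not stated in the labels. Same-numbered libraries correlated at 0.05, 0.04, 0.15 and 0.00 in their deviations, and not every library correlated best with its own number. Deviations from a mean of 4 libraries depend on each other, so these values cannot decide whether the libraries are paired. The split with library size alone was 7641 higher and 5464 lower. List medians moved by less than the spread over libraries in 942 of 1219 cases and by more in 277. The largest move, 3.37, was that of 3 tested blood cell markers without the filter, and the complement median, -0.34, was 0.54 without the filter. Depth limits genes under 1 CPM, and 1 cell line at 1 time limits what the groups stand for.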
